A study of Homo sapiens with 8 samples.

Results

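The transcript levels of 10 genes of the ETS transcription factor family were followed across 8 arrays of human prostate cancer cells. The genes were EHF, ELF3, ELF5, SPDEF, ETS1, ETS2, ETV1, ETV4, ETV5 and ERG, and every probe set annotated to 1 of these symbols alone was taken. This gave 10 of the 19775 genes named on the array and 38 of its 54613 probe sets that are not controls. Values are log2 RMA values, in which a difference of 1 is a 2-fold difference.

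ETS factors share a DNA-binding domain that reads a GGAA core, and members differ mostly in where they are expressed and which signals act on them. EHF, ELF3, ELF5 and SPDEF are epithelial members that are found in glandular and surface epithelia, including the prostate. ETS1, ETS2 and the PEA3 members ETV1, ETV4 and ETV5 respond to RAS and ERK signaling and are known for their part in cell migration and invasion. ERG, ETV1, ETV4 and ETV5 are also the members that gene fusions activate in prostate cancer.

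The mesenchymal lines PC3-EMT1, PC3-EMT12 and PC3-EMT14 (1 array each, no shRNA) were isolated from PC3-Epi cells after co-culture with human macrophages. They were set against PC3-Epi itself (1 array, no shRNA), a luciferase-positive subpopulation of the PC3 prostate cancer line picked for its epithelial morphology. PC3-EMT1 and PC3-EMT14 carrying the shRNA sh4 against ZEB1 (1 array each) were set against the same lines carrying a scrambled shRNA, Scr (1 array each), all 4 by lentiviral transduction. ZEB1 is a repressor of epithelial genes that holds cells in the mesenchymal state. PC3-Epi stands for the epithelial state with 1 array of 1 selected population, ZEB1 was reduced with 1 shRNA in 2 of the lines, and nothing in the labels says that arrays came from separate cultures, so each p-value reflects the scatter among these arrays alone, part of which may be technical.

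The arrays formed 2 sets on different scales, with median log2 values of 4.33 to 4.35 on the 4 untransduced arrays and 6.19 to 6.23 on the 4 transduced arrays, so values were compared only within a set. The highest of 27 Bacillus subtilis control probe sets, taken as the background level, was 4.56 on the untransduced arrays and 6.00 on the transduced arrays. ZEB1 was at 9.12 in PC3-EMT1-sh4 and 9.01 in PC3-EMT14-sh4, against 9.87 in PC3-EMT1-Scr and 10.08 in PC3-EMT14-Scr, a difference of -0.91 that did not pass the test (limma, adjusted p = 0.244). All 5 epithelial markers were higher in sh4 in both lines. For PC3-EMT1 and PC3-EMT14 the differences were 4.02 and 3.85 (CDH1), 3.51 and 4.11 (ESRP1) and 2.14 and 1.79 (EPCAM). The Scr values of CDH1 and ESRP1 were under background, so those differences have no fixed size. None of the 5 passed the test, and these 3 did with the untransduced PC3-EMT1 and PC3-EMT14 arrays in the fit. That fit takes the difference between the lines to be the same in both sets. For CDH1 and ESRP1 the values it added were under background. ZEB1, VIM and FN1 were lower in both lines and CDH2 was higher. The EMT lines had the marker pattern of their label for ZEB1 (at least 4.75-fold higher than PC3-Epi, which was under background), VIM (1.91 higher), CDH1 (at least 107-fold lower) and ESRP1 (at least 96.2-fold lower, both under background in every EMT line), whereas the epithelial keratins KRT8 and KRT18 and the matrix gene FN1 did not pass the test. On the untransduced arrays ZEB1 was above background in the EMT lines alone, and CDH1 and ESRP1 in PC3-Epi alone. The filter thus left only 1 direction open to each of them. The study had also characterized its lines by E-cadherin, vimentin and ZEB1 protein, so this pattern is not independent evidence. Of 9 macrophage markers, LAPTM5 alone was above the untransduced background, at 5.23 to 5.57 in the EMT lines and 5.11 in PC3-Epi, and the summed log2 level of all 9 was 33.70 to 34.69 in the EMT lines and 33.58 in PC3-Epi. On the transduced arrays 3 or 4 of the 9 were above background, with sums of 51.27 to 51.57 in sh4 and 50.97 to 51.79 in Scr.

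Among the 10 genes, EHF and ELF3 were lower and ETV5 was higher in the EMT lines than in PC3-Epi, while SPDEF, ETS1, ETS2, ETV1 and ETV4 gave no difference that passed the test. ELF5 and ERG were under background on every array. Of the 38 probe sets, 26 were above background on at least 1 untransduced array and were tested, and 12 were under it on all 8 arrays. Of those 26, 4 were called higher (all ETV5) and 5 lower (2 of EHF and 3 of ELF3) at a limma adjusted p under 0.05. The 2 EHF probe sets and 229842_at of ELF3 were above background in PC3-Epi alone. They were tested only through that array, so lower was the only direction open to them. Over all 27734 probe sets tested, 24.5% were called, 9.89% higher and 14.6% lower, and the 9 of 26 are to be read against these shares. Probe sets of the same gene are not separate evidence. By the probe set with the highest level of each gene, 1 of 8 genes tested was called higher and 2 lower (37.5%). Over all genes tested, 26.1% were called. Without PC3-EMT14, 3219 in place of 6787 probe sets of the array were called, and 8 in place of 9 of the ETS probe sets.

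**Figure D1:**
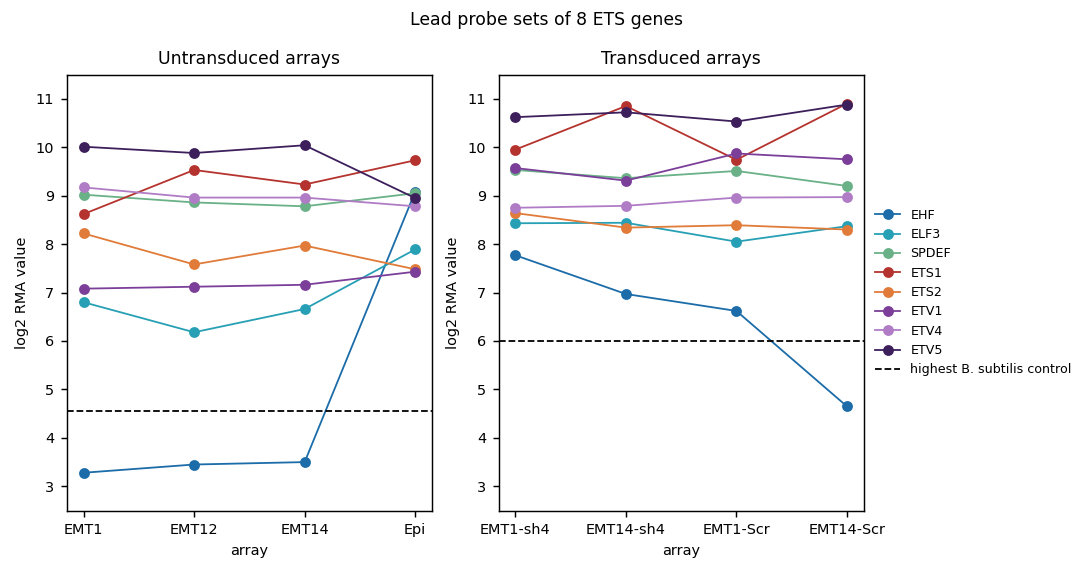
Log2 RMA value (vertical axis) of the probe set with the highest level of each of the 8 ETS genes measured above background, by array (horizontal axis), for the untransduced set (left) and the transduced set (right). Points are single arrays, lines join points of a gene, and the dashed line is the highest B. subtilis control (4.56 and 6.00). EHF lay at 3.28 to 3.50 in the EMT lines and 9.08 in PC3-Epi, and in the transduced set it was above background on 3 of 4 arrays. The panels are on different scales and probe sets of different genes cannot be ranked against each other.

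EHF (chr11:34621093-34663288, GRCh38.p14), an epithelium-specific factor that can both activate and repress its targets, showed the largest difference of the 10 genes. Its probe set 225645_at was at 3.28 in PC3-EMT1, 3.45 in PC3-EMT12 and 3.50 in PC3-EMT14, against 9.08 in PC3-Epi. All 3 EMT values were under the background of 4.56, so the level in the EMT lines has only an upper bound, and EHF was at least 22.9-fold lower in the EMT lines than in PC3-Epi (fitted difference -5.67 ± 0.16 (SE), limma adjusted p = 6.78e-05). A second probe set, 232361_s_at, was at 4.46, 4.06 and 3.82 for PC3-EMT1, PC3-EMT12 and PC3-EMT14, against 6.03 in PC3-Epi. Its EMT values were also under background, which made EHF at least 2.76-fold lower by this probe set (-1.91 ± 0.25, limma adjusted p = 0.00566). The probe sets 219850_s_at, 224189_x_at and 232360_at were under background everywhere and untested, so they give no order, and their measured differences were -2.04 to -2.01, -1.86 to -1.61 and -0.99 to -0.63. The sixth, 222932_at, stood at 2.37 to 2.44 in the EMT lines and 2.55 in PC3-Epi. The study picked EHF from these same arrays, so its direction is not independent evidence.

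ELF3 (chr1:202010587-202017183), which drives differentiation genes in surface epithelia and is induced in inflammation, was lower by all 3 of its probe sets. The brightest, 210827_s_at, was at 6.80 in PC3-EMT1, 6.18 in PC3-EMT12 and 6.66 in PC3-EMT14, against 7.89 in PC3-Epi. The value of 201510_at was 4.60, 4.04 and 4.73 in these lines, against 7.14 in PC3-Epi. For 229842_at it was 4.09, 3.68 and 3.97, all under background, against 6.34 in PC3-Epi. Each of the 3 lines was below the single PC3-Epi array on every probe set, and PC3-EMT12 was the lowest line on the first of them. For 210827_s_at the difference was -1.34 ± 0.26 (limma adjusted p = 0.0166). For 201510_at PC3-EMT12 alone was under background, and ELF3 was at least 5.7-fold lower with that line set to background (fitted -2.69 ± 0.28, adjusted p = 0.00269). For 229842_at it was at least 3.44-fold lower (fitted -2.43 ± 0.20, adjusted p = 0.0012). By 210827_s_at the ELF3 transcript stayed above background in every EMT line, and the 95% interval of its difference was -1.96 to -0.72.

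The 5 probe sets of EHF and ELF3 that passed the test were also the only ones of the 26 that differed 2-fold or more in every EMT line. Those of EHF and 229842_at of ELF3 were tested only because PC3-Epi was above background, so their direction was fixed by the filter. Over the array, 4.71% of probe sets were 2-fold or more lower in every line and 2.02% were higher. SPDEF (chr6:34537802-34556329), the prostate-derived ETS factor that supports luminal and secretory differentiation, had no probe set among the 5. Its probe set 220192_x_at was at 9.02, 8.86 and 8.78 for PC3-EMT1, PC3-EMT12 and PC3-EMT14, against 9.05 in PC3-Epi, a difference of -0.16 with a 95% interval of -0.56 to 0.24. The 5 SPDEF probe sets had differences of -0.18 to 0.14 and none passed the test. All 5 carry the suffix that marks probes with possible matches to other transcripts, and the part of such matches was not tested. ELF5 (chr11:34478791-34513794), a factor of mammary and other glandular epithelia, was at 2.79 to 3.32 on the untransduced arrays and 4.16 to 4.92 on the transduced arrays. It is the immediate neighbor of EHF, with 107 kb and no protein-coding gene between them, and it was under background on the PC3-Epi array where EHF was at 9.08.

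**Figure D2:**
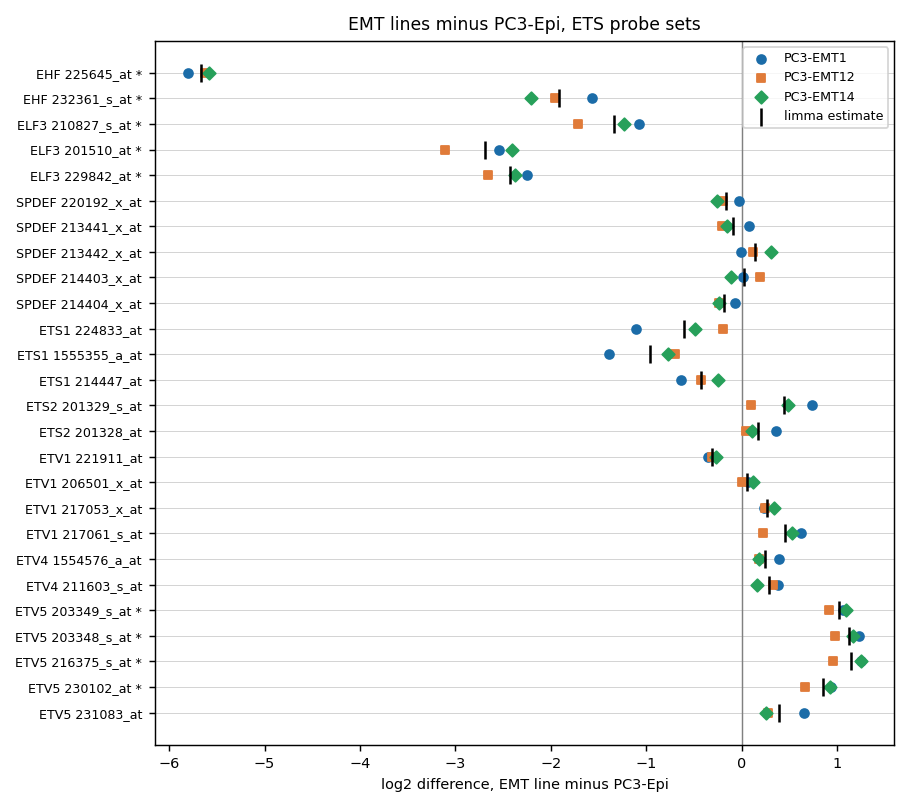
Log2 difference of each EMT line minus PC3-Epi (horizontal axis) for the 26 ETS probe sets above background on at least 1 untransduced array (vertical axis). Symbols are the 3 lines, the black bar is the limma estimate, and an asterisk marks an adjusted p under 0.05. EHF and ELF3 lie left of -1 in every line, 4 of the 5 ETV5 probe sets passed the test on the right, and the probe sets of SPDEF, ETS2, ETV1 and ETV4 lie between -0.35 and 0.74.

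Promoter sequence is given for EHF, ELF3 and SPDEF, the epithelial members above background, and not for ELF5. The reason is that EHF and ELF3 were both lower in the lines with more ZEB1, whose known binding letters are CAGGTG, and SPDEF was not. RefSeq windows of 300 bases on GRCh38.p14, most of it before an annotated start, were matched by symbol for 7 of the 10 genes, with 17 windows in all. Both EHF windows lie inside the gene, which begins at 34621093, and its first base had no window. Capitals mark CACCTG or CAGGTG, the same letters on the 2 strands, and the ETS core GGAA or TTCC. The windows are written on the strand of the gene, from 5′ to 3′.
EHF, start 1, chr11:34624007-34624306, plus strand: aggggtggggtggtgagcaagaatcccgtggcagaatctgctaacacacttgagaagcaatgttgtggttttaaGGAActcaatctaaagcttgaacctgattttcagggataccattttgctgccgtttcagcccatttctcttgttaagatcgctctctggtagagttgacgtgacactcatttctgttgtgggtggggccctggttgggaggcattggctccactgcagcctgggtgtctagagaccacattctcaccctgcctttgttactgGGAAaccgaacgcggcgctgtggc
EHF, start 2, chr11:34632316-34632615, plus strand: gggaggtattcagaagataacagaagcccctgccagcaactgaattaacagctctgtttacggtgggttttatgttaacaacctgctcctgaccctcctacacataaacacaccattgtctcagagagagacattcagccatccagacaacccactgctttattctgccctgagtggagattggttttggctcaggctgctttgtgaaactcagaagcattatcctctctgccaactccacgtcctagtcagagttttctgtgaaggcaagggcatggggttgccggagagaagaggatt
ELF3, chr1:202010337-202010636, plus strand: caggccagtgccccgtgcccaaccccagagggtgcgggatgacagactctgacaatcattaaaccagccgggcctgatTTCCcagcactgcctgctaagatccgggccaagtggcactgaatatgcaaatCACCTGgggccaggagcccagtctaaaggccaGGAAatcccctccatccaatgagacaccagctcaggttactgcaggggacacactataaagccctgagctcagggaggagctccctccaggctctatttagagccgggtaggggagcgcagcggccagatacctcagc
SPDEF, chr6:34556280-34556579, minus strand: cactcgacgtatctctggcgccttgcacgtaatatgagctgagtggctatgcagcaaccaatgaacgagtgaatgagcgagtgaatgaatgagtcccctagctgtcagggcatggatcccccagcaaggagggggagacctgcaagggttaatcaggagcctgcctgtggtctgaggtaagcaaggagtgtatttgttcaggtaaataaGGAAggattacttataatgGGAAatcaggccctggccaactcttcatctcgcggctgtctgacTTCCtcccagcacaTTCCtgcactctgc
The ELF3 window held CACCTG once, 120 bases before the start, and neither EHF window nor the SPDEF window held these letters. Windows of ELF5, ETS2 and ERG also held them, which made 6 of the 17 windows (35.3%), where 20.6% of all 35116 windows do. These 6 windows belong to 4 of the 7 genes with a window, and windows of the same gene are not separate evidence. A pair of the 6 are ERG windows that overlap. ELF5 and ERG were under background on every array. GGAA or TTCC occurred in 16 of the 17 windows, the second EHF window being the exception, and in 95.5% of all windows. The longer ETS letters CGGAAGT or ACTTCCG were in none of the 17 and in 6.83% of all windows. A match says only that the letters are there.

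ETV5 (chr3:186046314-186109089), a PEA3 factor that acts downstream of FGF and ERK signaling, was the only one of the 10 genes that was called higher in the EMT lines. Its probe set 203349_s_at was at 10.01 in PC3-EMT1, 9.88 in PC3-EMT12 and 10.04 in PC3-EMT14, against 8.95 in PC3-Epi. The lines lay close together and all stood above PC3-Epi, with a difference of 1.02 ± 0.16 (2.03-fold, limma adjusted p = 0.00866). By 203348_s_at the levels were 9.22, 8.97 and 9.16, against 7.99 in PC3-Epi (1.13 ± 0.17, adjusted p = 0.00798). By 216375_s_at they were 7.94, 7.65 and 7.93, against 6.68 in PC3-Epi (1.15 ± 0.18, adjusted p = 0.00942). PC3-EMT12 was the lowest of the 3 lines on each of these probe sets, and its difference stayed under 2-fold on all of them (0.92, 0.98 and 0.96), so ETV5 was not among the probe sets that differed 2-fold in every line. The fourth probe set, 230102_at, passed the test as well (0.85 ± 0.17, adjusted p = 0.0202) but not when PC3-EMT14 was left out (0.81, adjusted p = 0.0684). The dim 231083_at, above background in PC3-EMT1 alone, did not pass it (adjusted p = 0.193).

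The other PEA3 factors differed less. ETV4 (chr17:43527846-43546340), which is highly expressed in PC3 cells, was at 9.17, 8.96 and 8.96 for PC3-EMT1, PC3-EMT12 and PC3-EMT14 by 1554576_a_at, against 8.78 in PC3-Epi. By 211603_s_at it was at 8.23, 8.19 and 8.01, against 7.85 in PC3-Epi. Every EMT line was above PC3-Epi on both, by 0.16 to 0.39, and neither difference passed the test (0.25 and 0.29, limma adjusted p = 0.301 and 0.23). ETV1 (chr7:13891229-13991425), which cooperates with androgen signaling in prostate tumors, gave probe sets of opposite sign. Its brightest, 221911_at, was at 7.08, 7.12 and 7.16 in the EMT lines, against 7.43 in PC3-Epi (-0.31 ± 0.15, adjusted p = 0.162). By 217061_s_at it was at 5.88, 5.49 and 5.79, against 5.26 in PC3-Epi (0.46 ± 0.20, adjusted p = 0.136), which passed the test without PC3-EMT12 (0.58, adjusted p = 0.0367). The mean over the ETV1 probe sets differed by 0.07, with a sign opposite to that of the brightest probe set, so no direction is given for ETV1.

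ETS1 (chr11:128458765-128587558), a factor of invasive and endothelial cells often counted among mesenchymal ETS genes, was not higher in the mesenchymal lines. By 224833_at it was at 8.62 in PC3-EMT1, 9.53 in PC3-EMT12 and 9.23 in PC3-EMT14, against 9.73 in PC3-Epi. By 1555355_a_at it was at 7.65, 8.34 and 8.27, against 9.05 in PC3-Epi. By 214447_at it was at 6.04, 6.25 and 6.42, against 6.67 in PC3-Epi. All 9 values of the EMT lines were below those of PC3-Epi, and PC3-EMT1 was the lowest line by each probe set. These 9 values come from 3 arrays and are set against the same PC3-Epi array, so they are not separate evidence. The differences were -0.60 ± 0.34, -0.96 ± 0.29 and -0.43 ± 0.19, and none passed the test (limma adjusted p = 0.228, 0.0562 and 0.139). The second passed it when PC3-EMT1 was left out (-0.74, adjusted p = 0.0301) or PC3-EMT12 was left out (-1.08, adjusted p = 0.0421). ETS2 (chr21:38805183-38824955), a close relative of ETS1 that is also phosphorylated by ERK, was at 8.22, 7.58 and 7.97 for PC3-EMT1, PC3-EMT12 and PC3-EMT14 by 201329_s_at, against 7.48 in PC3-Epi (0.44 ± 0.25, adjusted p = 0.238). This difference passed the test without PC3-EMT12 (0.61, adjusted p = 0.0485), while 201328_at gave 0.17 ± 0.18 (adjusted p = 0.506). ERG (chr21:38367261-38661783), the most common fusion partner in prostate cancer, was at 2.15 to 3.28 on the untransduced arrays and 3.41 to 4.39 on the transduced arrays, although ETS2, its neighbor at a distance of 143 kb with no protein-coding gene between them, was above background on all 8 arrays by 201329_s_at.

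The comparison of sh4 with Scr addressed whether these genes shift when ZEB1 is reduced in an EMT line. None of the 24 ETS probe sets tested passed the test for sh4 against Scr, and the percentage called over all 31363 probe sets was 0, with 4521 at an unadjusted p under 0.05. When the untransduced PC3-EMT1 and PC3-EMT14 arrays were added to the fit, 0.727% of probe sets were called, and again none of the 24. The 95% intervals below are unadjusted. With values under background set to background, a choice made after seeing the data, none of the 24 was 2-fold or more higher or lower in both lines, where 0.156% of the array was higher and 0.0957% lower. With values as measured it was 1, the EHF probe set 225645_at (0.226% and 0.14% over the array), and that count rests on a value under background.

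EHF by 225645_at was at 7.77 in PC3-EMT1-sh4 and 6.97 in PC3-EMT14-sh4, against 6.62 in PC3-EMT1-Scr and 4.65 in PC3-EMT14-Scr. The sh4 value was the higher one in each line. The Scr level was above the background of 6.00 in PC3-EMT1 and under it in PC3-EMT14, so the measured difference of 2.32 in PC3-EMT14 has no fixed size and is 0.97 with Scr set to background, whereas that of 1.15 in PC3-EMT1 was between 2 values above it. The fit on the measured values did not pass the test (1.74, unadjusted p = 0.00365, limma adjusted p = 0.256, and 0.111 with 6 arrays), and its size depends on the value under background. PC3-EMT14-sh4 was also the array that stood apart in RNA quality, with a 3′ minus 5′ difference of ACTB of 2.22, against 1.42 to 1.68 on the other transduced arrays, and of GAPDH of 0.18, against -0.19 to -0.15, and its part in the EHF value of PC3-EMT14 was not tested. Within the untransduced set PC3-EMT1, like the other EMT lines, was under background for EHF, while PC3-EMT1-Scr was above the background of its own set. The second EHF probe set, 232361_s_at, was under background on all 4 arrays, at 5.84 (PC3-EMT1) and 4.98 (PC3-EMT14) in sh4 and 5.21 (PC3-EMT1) and 4.88 (PC3-EMT14) in Scr.

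ELF3 gave no difference that passed the test. By 210827_s_at it was at 8.43 in PC3-EMT1-sh4 and 8.44 in PC3-EMT14-sh4, against 8.05 in PC3-EMT1-Scr and 8.37 in PC3-EMT14-Scr. The difference was 0.38 in PC3-EMT1 and 0.08 in PC3-EMT14, with a mean of 0.23 and a 95% interval of -0.14 to 0.59 (limma adjusted p = 0.48). By 201510_at it was 0.21 (-0.20 to 0.62), and by 229842_at both PC3-EMT1 arrays were under background. The intervals of the first 2 probe sets lie below a 2-fold rise in sh4 and do not exclude a smaller one. On all 4 transduced arrays ELF3 was above background by 210827_s_at and 201510_at. The SPDEF probe sets differed by -0.01 to 0.15 between sh4 and Scr.

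**Figure D3:**
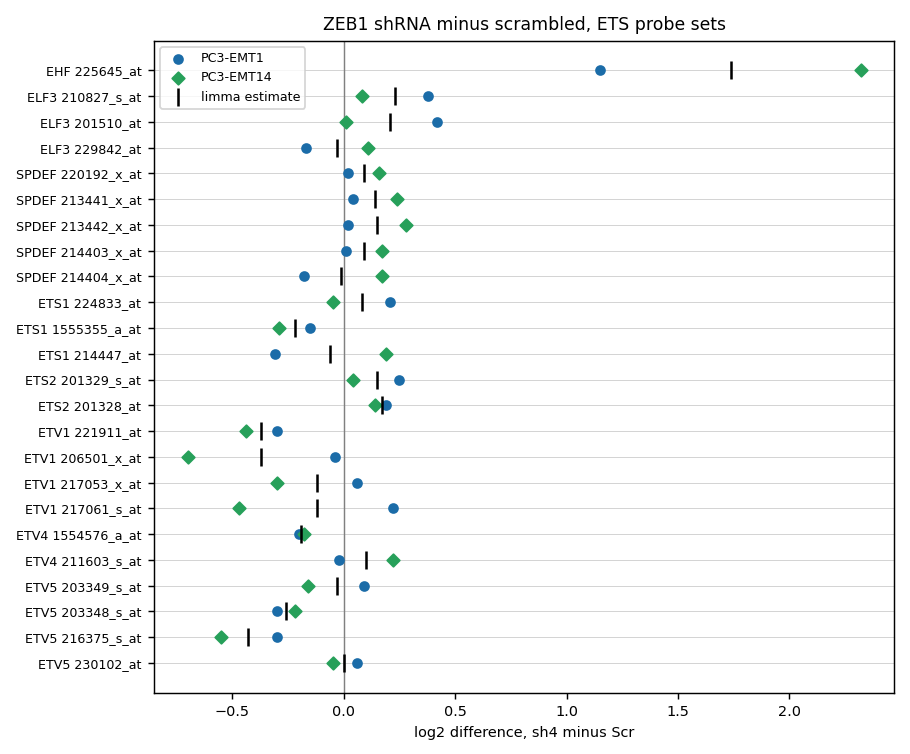
Log2 difference of sh4 minus Scr (horizontal axis) within PC3-EMT1 (circles) and PC3-EMT14 (diamonds) for the 24 ETS probe sets above background on at least 1 transduced array (vertical axis), with the limma estimate as a black bar. EHF 225645_at stands at 1.15 and 2.32, the second of which rests on a Scr value under background and is 0.97 with that value set to background, and every other value lies between -0.70 and 0.42. None passed the test.

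The remaining genes differed by less than 2-fold in both lines. ETV1 by 221911_at was at 9.57 in PC3-EMT1-sh4 and 9.31 in PC3-EMT14-sh4, against 9.87 in PC3-EMT1-Scr and 9.75 in PC3-EMT14-Scr (-0.37 ± 0.12, unadjusted p = 0.0326, limma adjusted p = 0.32). The other 3 ETV1 probe sets tested, 206501_x_at, 217053_x_at and 217061_s_at, stood at -0.70, -0.30 and -0.47 in PC3-EMT14 and at -0.04, 0.06 and 0.22 in PC3-EMT1. ETV5, which had been higher in the EMT lines, was at 8.35 and 8.29 in PC3-EMT1-sh4 and PC3-EMT14-sh4 by 216375_s_at, against 8.65 and 8.84 in PC3-EMT1-Scr and PC3-EMT14-Scr (-0.43 ± 0.13, unadjusted p = 0.0267, adjusted p = 0.31). Its other 3 tested probe sets gave -0.26, -0.03 and 0.00, and none passed the test. The part of the RNA quality of the PC3-EMT14-sh4 array in the ETV1 and ETV5 values of PC3-EMT14 was not tested. ETV4 differed by -0.19 and 0.10, ETS2 by 0.15 and 0.17, and ETS1 by -0.22 to 0.08, none past the test (adjusted p between 0.444 and 0.891).

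Between PC3-EMT14 and PC3-EMT1, ETS1 had the largest difference among the ETS probe sets above background on all 4 transduced arrays, but it did not pass the test. No probe set of the array passed the test of the lines on the transduced arrays, so the percentage called was 0, with 4115 at an unadjusted p under 0.05. ETS1 by 224833_at was at 10.85 in PC3-EMT14-sh4 and 10.90 in PC3-EMT14-Scr, against 9.95 in PC3-EMT1-sh4 and 9.74 in PC3-EMT1-Scr. By 1555355_a_at it was at 7.37 and 7.66 in PC3-EMT14, against 6.28 and 6.44 in PC3-EMT1, also with sh4 before Scr. The differences between the lines were 1.03 ± 0.13 and 1.16 ± 0.12 (unadjusted p = 0.001 and 0.00043, limma adjusted p = 0.191 and 0.174). In the untransduced pair the differences had the same direction and were smaller, at 0.61 and 0.62. The probe set 1555355_a_at was 2-fold or more higher in PC3-EMT14 in both the sh4 and the Scr pair, 1 of 24 ETS probe sets, and none was lower to that extent. Over the array, 0.386% were higher and 0.0893% lower. The third ETS1 probe set gave 0.30 ± 0.17 (adjusted p = 0.52).

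EHF by 225645_at differed between PC3-EMT14 and PC3-EMT1 by -0.80 in the sh4 pair. In the Scr pair, where PC3-EMT14 was under background, the measured difference was -1.96 and it was -0.61 with that array set to background. The fit on the measured values did not pass the test (limma adjusted p = 0.25), and in the untransduced pair both lines were under background. ELF3 by 229842_at was at 6.19 in PC3-EMT14-sh4 and 6.08 in PC3-EMT14-Scr, against 5.52 in PC3-EMT1-sh4 and 5.69 in PC3-EMT1-Scr, which puts PC3-EMT14 just above and PC3-EMT1 just under the background of 6.00 (adjusted p = 0.282). The other ELF3 probe sets differed by 0.17 and 0.13. For SPDEF, ETS2, ETV1, ETV4 and ETV5 the lines differed by -0.27 to 0.22.

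**Figure D4:**
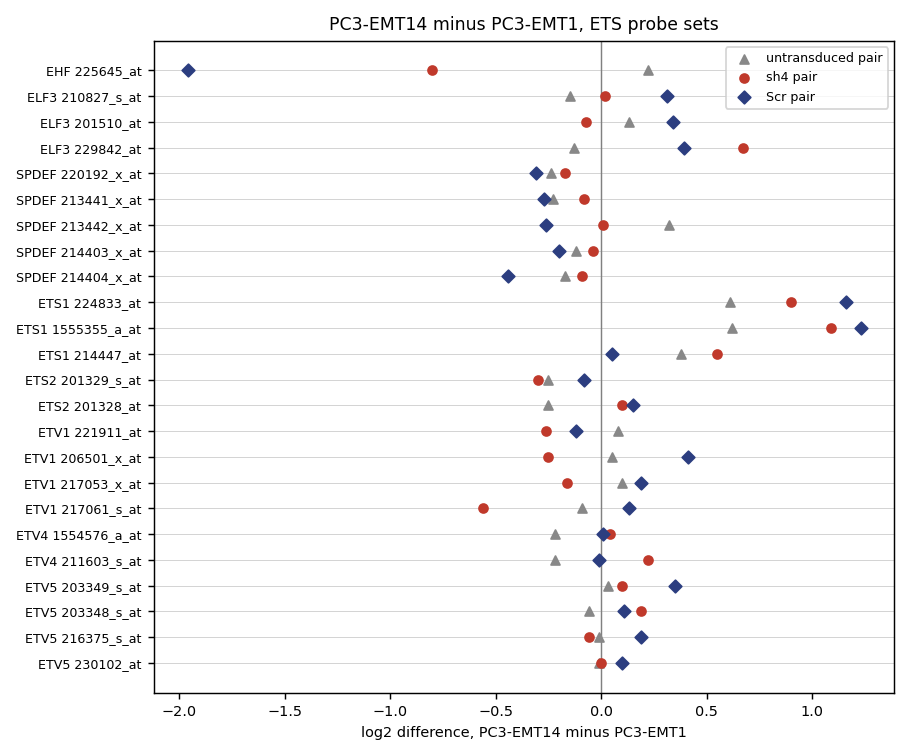
Log2 difference of PC3-EMT14 minus PC3-EMT1 (horizontal axis) in the untransduced pair (triangles), the sh4 pair (circles) and the Scr pair (diamonds) for the 24 ETS probe sets tested on the transduced arrays (vertical axis). The ETS1 probe sets 224833_at and 1555355_a_at lie at 0.61 to 1.23 in all 3 pairs, and EHF at -0.80 in the sh4 pair. The EHF points of the Scr pair (-1.96) and the untransduced pair rest on values under background and have no fixed size.

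The rest of the ETS family was read by the probe set with the highest level of each gene. Of 17 other ETS genes on the array 11 were above background on an untransduced array. None of these was called higher in the EMT lines and 5 were called lower (45.5%). Over all genes tested, 26.1% were called in either direction and 14.1% were called lower. ERF (0.51, limma adjusted p = 0.084) and ELK1 (0.27, adjusted p = 0.259) were above PC3-Epi in every EMT line without passing the test. The median difference of the 11 was -0.39, against 0.08 over all genes. The widely expressed activator ELF1 was at 7.74, 7.80 and 7.64 for PC3-EMT1, PC3-EMT12 and PC3-EMT14, against 9.04 in PC3-Epi (-1.32 ± 0.15, limma adjusted p = 0.0038). ELK4, a ternary complex factor that works with serum response factor, differed by -1.01 (adjusted p = 0.0338). GABPA, an activator of mitochondrial and housekeeping genes, differed by -0.92 (adjusted p = 0.0388), and the repressor ETV6 by -0.90 (adjusted p = 0.0101). For sh4 against Scr none of 14 passed the test, and their median was 0.03, against 0.01 over all genes. The largest differences, of ELF4 (0.43) and SPIB (0.42), had an adjusted p of 0.296.

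**Figure D5:**
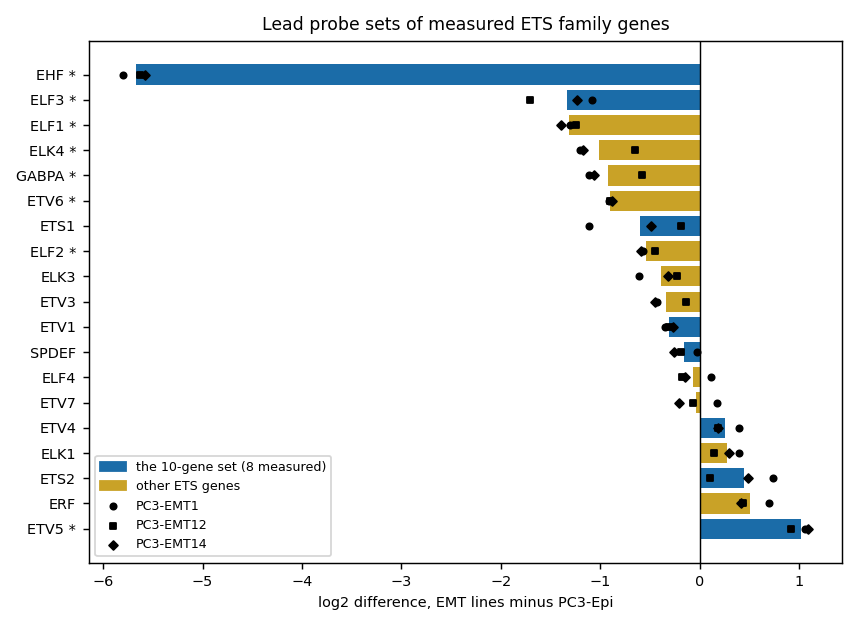
Log2 difference of the EMT lines minus PC3-Epi (horizontal axis, bars are limma estimates, black symbols are single lines) for 19 ETS family genes above background on an untransduced array (vertical axis, sorted). An asterisk marks an adjusted p under 0.05. EHF (-5.67, a fit on values under background in the EMT lines) stands far below the others, 5 of the 11 other ETS genes passed the test on the low side, and ETV5 (1.02) is the only gene that passed it on the high side.

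Genes around the PEA3 factors were described by lists. Of 18 genes tested that are feedback inhibitors or outputs of ERK signaling, 5 were called higher and 1 was called lower in the EMT lines (33.3%). Over all genes tested, 26.1% were called in either direction and 12% were called higher. The median of the 18 was 0.36, against 0.08 over all genes. The ERK pathway inhibitor SPRY4 was at 9.95, 10.57 and 9.83 for PC3-EMT1, PC3-EMT12 and PC3-EMT14, against 7.76 in PC3-Epi (2.36 ± 0.30, limma adjusted p = 0.00487). Its relative SPRY2 differed by 1.18 (adjusted p = 0.0199), the ERK phosphatase DUSP5 by 1.55 (adjusted p = 0.0025) and the ephrin receptor EPHA4 by 1.77 (adjusted p = 0.00904). The remaining ones, named after their values were seen, were the ERK phosphatase DUSP6 (1.15, adjusted p = 0.00511) and, lower, the immediate early factor EGR1, which was at 4.28, 4.19 and 4.33 for PC3-EMT1, PC3-EMT12 and PC3-EMT14, all under background, against 5.02 in PC3-Epi (adjusted p = 0.0187). SPRY2, SPRY4, DUSP5 and DUSP6 are, like ETV5, known targets of ERK or FGF signaling. EGR1, of the same list, was above background in PC3-Epi alone, so lower was the only direction open to it. Of the 18, 12 were not called. Whether ERK or FGF signaling differed between the EMT lines and PC3-Epi was not tested. For sh4 against Scr none of 17 passed the test, with a median of -0.15. The largest differences were those of EPHA4 (-1.03 in PC3-EMT1 and -0.87 in PC3-EMT14, mean -0.95, adjusted p = 0.22) and SPRY4 (-0.34 and -0.98, mean -0.66, adjusted p = 0.307). With 6 arrays EPHA4 was called (adjusted p = 0.0285), where 0.727% of all probe sets were. The part of the RNA quality of the PC3-EMT14-sh4 array in the values of PC3-EMT14 was not tested.

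Of 10 genes listed as possible regulators of the PEA3 proteins or their transcription, 1 was called higher and 3 were called lower in the EMT lines (40%, against 26.1% over all genes). Their median was -0.06. DET1, part of the COP1 ubiquitin ligase that degrades PEA3 proteins, was higher by 1.17 (limma adjusted p = 0.0142). TRIB2, a COP1 adaptor, was at 7.31, 7.77 and 7.47 for PC3-EMT1, PC3-EMT12 and PC3-EMT14, against 9.38 in PC3-Epi (-1.86, adjusted p = 0.00349). ATXN1, a partner of CIC, the repressor of ETV1, ETV4 and ETV5 transcription, differed by -0.96 (adjusted p = 0.027), and the deubiquitinase USP9X by -0.73 (adjusted p = 0.0446). Whether any listed gene, USP9X included, acts on PEA3 factors in these cells was not tested. None of the 10 passed the test for sh4 against Scr, where ATXN1 had the largest difference (-0.32 in PC3-EMT1 and -0.95 in PC3-EMT14, mean -0.64, adjusted p = 0.31).

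Genes known to have ETS sites in their promoters were taken as 2 lists. Of 7 invasion genes tested, 3 were called higher and 2 lower in the EMT lines (71.4%, against 26.1% over all genes), with a median of 0.40. PLAUR, the urokinase receptor, was higher by 1.12 (limma adjusted p = 0.0132) and the integrin subunit ITGB3 by 1.02 (adjusted p = 0.0171). The gelatinase MMP9 was at 5.40, 5.65 and 5.76 for PC3-EMT1, PC3-EMT12 and PC3-EMT14, against 7.21 in PC3-Epi (-1.60, adjusted p = 0.00396), and VEGFA differed by -1.02 (adjusted p = 0.0409). Of 7 epithelial genes tested, none was called higher and 3 were called lower (42.9%), with a median of -0.61. The iron-binding lipocalin LCN2 was at 5.08, 5.11 and 5.03, against 10.90 in PC3-Epi (-5.83, adjusted p = 6.78e-05). CLDN7, a claudin of tight junctions, differed by -3.62 (adjusted p = 0.00153) and the keratin KRT4 by -2.50 (adjusted p = 0.0016). For sh4 against Scr none of 8 invasion genes and none of 8 epithelial genes passed the test. LCN2 differed by 0.84 in PC3-EMT1 and 1.56 in PC3-EMT14 (1.20, adjusted p = 0.256, and 0.0393 with 6 arrays), and CLDN7 by 1.24 and 1.16 (1.20, adjusted p = 0.173, and 0.0125 with 6 arrays). With 6 arrays 0.727% of all probe sets were called.

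Between the lines, the interstitial collagenase MMP1, a known ETS1 target, had the same direction as ETS1. It was at 9.23 in PC3-EMT14-sh4 and 9.75 in PC3-EMT14-Scr, against 7.10 in PC3-EMT1-sh4 and 7.69 in PC3-EMT1-Scr (2.10 ± 0.12, limma adjusted p = 0.101). In the untransduced lines MMP1 was at 5.62 in PC3-EMT1, 6.70 in PC3-EMT12 and 7.28 in PC3-EMT14, against 8.49 in PC3-Epi. As for ETS1, every EMT line was below PC3-Epi and PC3-EMT1 was the lowest, and the difference of the EMT lines from PC3-Epi did not pass the test. MMP1 was not alone between the lines. Of 8 invasion genes tested on the transduced arrays, 6 were higher in PC3-EMT14 in both pairs and 1 was lower. Their median was 0.47, against 0.00 over all genes. Whether ETS1 acts on MMP1 in these cells was not tested.

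The genes most like EHF, ELF3 and ETV1 were found by the distance between their 5 within-set differences (3 EMT lines minus PC3-Epi and 2 of sh4 minus Scr), over 12536 genes above background in both sets. The nearest to EHF by measured values were OVOL2, LCN2, FXYD3, CALB1 and TMEM30B. Because 4 of the 5 EHF differences rest on values under background, no distance or order is given for them, and 3 of the 5 names (OVOL2, FXYD3 and TMEM30B) were also among the nearest 5 with values under background set to background. The nearest to ELF3 were ZBTB18 (0.38), ACOT4 (0.39), ADAMTS15 (0.40), FBXO4 (0.42) and FPR1 (0.43), of which 4 stayed among the nearest 5 with values under background set to background, and none had a difference over 0.33 in sh4. The nearest to ETV1 were LYSET (0.12), ZNF658 (0.13), HCG4 (0.13), DNAJB14 (0.16) and TMEM117 (0.16), whose differences were all small. The 3 EMT differences share the PC3-Epi array, so the distance is a description.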

How the data were processed

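RNA of 8 samples was hybridized to Affymetrix oligonucleotide arrays, 1 for each. The deposited values are log2 values that the authors made with RMA in the affy package (versions not given in the sources used here), and they were used without change. Of 54675 probe sets, 62 are controls, 41091 have 1 gene symbol in the platform annotation, 1801 several and 11721 none, and genes were named from the first kind alone. A probe set was tested where at least 1 array of the comparison reached the highest B. subtilis control of its set, 27734 (50.8%) untransduced and 31363 (57.4%) transduced.

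Linear models were fitted with limma 3.58.1 in R 4.3.3 and moderated by eBayes, and p-values were adjusted by Benjamini-Hochberg across every probe set tested, with a threshold of 0.05. EMT against PC3-Epi used the 4 untransduced arrays, with 2 residual degrees of freedom, and the lone PC3-Epi array was given the spread of the EMT lines. The 4 transduced arrays were fitted by shRNA and line for the comparisons of sh4 with Scr and of PC3-EMT14 with PC3-EMT1, with 1 residual degree of freedom. Replicate numbers of the EMT, Scr and sh4 arrays follow the cell line names, so arrays of these groups with the same number are of the same line, and the line was the block. The fitting code was also run on simulated arrays that had no difference between the lines. This was a check of the code alone and bears on no result here. Precision is limited by the small number of arrays.

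The probe set with the highest sum of the means of both sets leads a gene. Up to 4 called genes of each list with the largest differences, or otherwise the 2 largest, were named, with all 10 ETS genes and the 5 genes most like EHF, ELF3 and ETV1. Lists were the other ETS family, ERK feedback and output, regulators of PEA3 factors, invasion and epithelial genes with ETS sites, and epithelial, mesenchymal and macrophage markers. Listed genes without a probe set of 1 symbol were not analysed here. The members and lists were chosen with earlier results of these data known. Alternatives changed the filter, the unit, the scaling, low values (32 added), the variance model, the arrays and the block. Values under background set to background were added after seeing the data. Sequences are those of RefSeq.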

Additional observations from a re-analysis of the deposited data

Results flagged for a closer look

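For 2 of the leading probe sets, sh4 minus Scr had opposite signs in the 2 lines. ETS1 224833_at stood at -0.05 in PC3-EMT14 and 0.21 in PC3-EMT1, so the response in PC3-EMT14 was -0.26 relative to PC3-EMT1. ETV5 203349_s_at stood at -0.16 in PC3-EMT14 and 0.09 in PC3-EMT1, a difference of -0.25. With 1 array of each kind per line, neither difference between the lines was tested, and the PC3-EMT14-sh4 array is the one with the larger ACTB 3′ minus 5′ difference (2.22).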

How the results depend on the processing

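Of 770 values of single ETS probe sets or genes under the alternatives that have a test, 756 kept their direction and their side of the threshold, 6 newly passed the test, 1 no longer passed it and 7 changed sign, none of these 7 past the test in either form. The sign changes were ETV1 221911_at (0.07) and ETS1 224833_at for sh4 (-0.07) when a gene's probe sets were averaged, SPDEF 214403_x_at without PC3-EMT12 (-0.04, and 0.10 at the other end when a line was left out), ETV5 230102_at for sh4 with median centring (-0.02), and with quantile normalization ETV4 1554576_a_at (-0.03) and ETV5 230102_at (-0.01) between the lines and SPDEF 214404_x_at for sh4 (0.04). ETS1 1555355_a_at in the EMT lines passed the test with 32 added (adjusted p = 0.0494) and with a variance trend (0.0396). Another 70 values have no test. In the untransduced pair, 9 of 22 differences between the lines had the sign opposite to the transduced fit, and with 1 line left out of sh4 against Scr it was 4 of 24 for either line. EHF for sh4 was under background as a mean of its probe sets and has no value there.

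For EMT against PC3-Epi, the count of 6787 became 3560 with 1 probe set per gene and 3361 with probe sets averaged per gene, both of which test fewer units, and 3219 to 9029 when a line was left out, the lowest without PC3-EMT14. The 9 ETS probe sets called became 3 genes with 1 probe set per gene and 3 with the mean, and 8 to 12 when a line was left out. For sh4 against Scr, the count of 0 became 4 with 1 probe set per gene, 4 with 32 added, 6 with a filter at log2 7, 2 with a variance trend, 27 with the mean of probe sets, 47 with median centring and 31 with quantile normalization. Without the replicate block, that is, without the pairing by cell line, it was 1, and with 6 arrays of both sets 228. Between the lines, 0 became 33 with the mean, 26 with median centring and 24 with quantile normalization. No ETS probe set was among any of these calls for sh4 or the lines, and the cause of the changes was not tested. With values under background set to background, a choice made after seeing the data, the 1 ETS probe set that differed 2-fold in both lines for sh4 became 0, and the counts for EMT (5) and the lines (1) did not change. Signal limits the dim probe sets: values under 4.56 or 6.00 have no order, and the 12 ETS probe sets under them on all arrays were not tested.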
